A study of Sus scrofa with 15 samples.

Results

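Expression was followed in backfat for 8 genes that multinucleated giant cells of the macrophage lineage use to fuse and to resorb matrix: SPP1, MMP9, OCSTAMP, DCSTAMP, TM4SF19, ACP5, GPNMB and ATP6V0D2. They are 8 of the 30477 genes listed in the count data, and 7 of them were among the 14918 genes that passed the filter on low counts, the exception being ATP6V0D2. The genes were picked by name after their levels in these libraries had been seen to differ between the diets, so their levels and fold changes in the diet comparisons are given as a description, without a test. No p-value is given for them. Counts of those past the thresholds for a differentially expressed gene (DEG) are printed only beside the share or number of all genes that were. Tests are reported for other genes.

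The study asked how feeding olive by-products alters the transcriptome of subcutaneous fat in Iberian pigs. Backfat RNA of 15 pigs was sequenced, 1 library per pig and 5 pigs per diet. The C pigs received a control compound feed, the DOP pigs a compound feed containing dry olive pulp, and the WCOC pigs a compound feed together with a silage of wet crude olive cake offered ad libitum. All were of the Iberian breed, about a year old, kept on restricted amounts of compound feed, and biopsied in the lumbar backfat under sedation. As a share of ad libitum energy intake, the compound feed was restricted more for DOP and WCOC than for C. Feeding level and diet therefore cannot be told apart in the comparisons with C. Each diet was fed in a single pen, so pen and diet cannot be told apart, and the pigs sequenced were chosen for the quantity and quality of their RNA. Backfat is a mixture of adipocytes, vessels, connective tissue and immune cells, so fewer cells of one type and less RNA per cell cannot be told apart in these data.

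Osteoclasts are multinucleated cells that form when precursors of the monocyte and macrophage lineage fuse under the cytokines CSF1 and RANKL, the latter acting through the receptor RANK (TNFRSF11A) and the transcription factor NFATC1. They seal off a patch of bone, acidify it with a vacuolar proton pump and dissolve it with secreted enzymes. Macrophages in other tissues, adipose tissue among them, can switch on much of the same set of genes when they take up lipid or fuse around material they cannot clear, and are then called foam cells or giant cells.

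The 8 genes lie on 6 chromosomes of the pig assembly Sscrofa11.1, by the RefSeq annotation. OCSTAMP (chr17:48703937-48711690, minus strand, 6 exons) and DCSTAMP (chr4:32912320-32928323, minus strand, 4 exons) encode multipass membrane proteins needed for the fusion of precursors. TM4SF19 (chr13:133759122-133770064, plus strand, 6 exons) encodes a tetraspan membrane protein of multinucleated macrophages. SPP1 (chr8:131077786-131085334, minus strand, 7 exons) encodes osteopontin, a secreted glycoprotein that binds integrins and CD44. MMP9 (chr17:48179690-48186782, plus strand, 13 exons) encodes gelatinase B, a secreted metalloproteinase. ACP5 (chr2:70206159-70209855, minus strand, 6 exons) encodes tartrate-resistant acid phosphatase, the classical histochemical marker of osteoclasts. ATP6V0D2 (chr4:50694188-50749373, minus strand, 8 exons) encodes the d2 subunit of the proton pump, and GPNMB (chr9:92037428-92071501, plus strand, 11 exons) encodes a glycoprotein of lysosomal and cell membranes. None of the 8 genes overlapped another RefSeq gene (0 overlapping genes for each).

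The 250 bases before the RefSeq gene start are shown for 3 of the genes, because they hold the letters of motifs of factors known in osteoclasts. Capitals mark TGANTCA (AP-1) in MMP9 and, in the others, GAGGAA (PU.1) or TGGAAA (NFAT), of which the reverse complement is capitalised where the motif is on the other strand. Each sequence is written 5′ to 3′ on the strand of its gene, and the gene start is that of the annotated model, which may be incomplete.
MMP9 (chr17:48179440-48179689, plus strand): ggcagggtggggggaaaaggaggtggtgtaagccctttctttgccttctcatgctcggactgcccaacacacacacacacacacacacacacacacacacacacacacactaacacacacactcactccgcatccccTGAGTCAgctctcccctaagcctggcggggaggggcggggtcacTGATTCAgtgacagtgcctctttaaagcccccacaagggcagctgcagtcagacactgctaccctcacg
OCSTAMP (chr17:48711691-48711940, minus strand): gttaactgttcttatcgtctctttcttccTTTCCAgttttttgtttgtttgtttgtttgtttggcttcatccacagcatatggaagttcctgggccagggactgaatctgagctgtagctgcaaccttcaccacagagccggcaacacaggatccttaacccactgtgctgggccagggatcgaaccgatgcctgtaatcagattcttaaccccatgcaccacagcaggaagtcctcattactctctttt
DCSTAMP (chr4:32928324-32928573, minus strand): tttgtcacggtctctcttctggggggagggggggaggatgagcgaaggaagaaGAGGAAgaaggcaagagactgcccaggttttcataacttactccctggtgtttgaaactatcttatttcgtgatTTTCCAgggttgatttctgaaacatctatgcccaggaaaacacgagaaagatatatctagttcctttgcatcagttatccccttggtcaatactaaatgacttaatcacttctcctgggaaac

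MMP9 held 2 AP-1 matches, at 113 to 107 and at 69 to 63 bases before the start. DCSTAMP held a PU.1 match at 197 to 192 bases and an NFAT match at 123 to 118 bases, and OCSTAMP held an NFAT match at 221 to 216 bases. ACP5 held a PU.1 match at 56 to 51 bases on the opposite strand. Both strands were searched, and the PU.1 and NFAT motifs share the letters GGAA but did not overlap at these places. Among all 19544 promoters of this length, AP-1 letters were in 5.25%, PU.1 letters in 22% and NFAT letters in 17.8%, against 1, 2 and 2 of the 8 genes. The E-box letters CATGTG (8.45% of promoters) and CACGTG (6.39%), read by MITF and TFEB, were in 0 of the 8. The matches are a description of these letters and say nothing of binding.

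Gene counts per library ranged from 22373715 to 34745218, and between 67.2% and 76.6% of a library's read pairs were on genes. By the run identifiers, C 1 to C 4 and all 5 WCOC libraries were read on one flow cell (A). C 5 and all 5 DOP libraries were read on another (B). Flow cell and diet thus overlap in part in the comparisons with C, and wholly between WCOC and DOP. Muscle RNA varied between libraries, the summed level of 5 matched skeletal muscle markers running from 46.1 to 3119 CPM for C, from 35 to 39083 CPM for DOP and from 19.8 to 632 CPM for WCOC. Adipocyte markers were abundant in every diet, with ADIPOQ (adiponectin) at 3691 ± 549 CPM in C, 5493 ± 919 CPM in DOP and 5849 ± 1353 CPM in WCOC (SD, n = 5).

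The fusion genes were low in abundance and highest in the controls. OCSTAMP was at 1.18, 3.20, 7.68, 2.38 and 10.2 CPM in C 1 to C 5 (CPM, counts relative to the TMM-scaled size of the library). In the DOP libraries OCSTAMP was at 0.803, 0.113, 0.309, 0.376 and 0.0349 CPM, and in the WCOC libraries at 0.622, 2.40, 0.294, 0.572 and 0.531 CPM. Every control was above every DOP library, while WCOC 2 lay inside the range of the controls. Behind these values stood 24 to 309 counts per control library and 1 to 20 counts per DOP library.

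DCSTAMP, the better known partner of OCSTAMP, followed a like order. Its levels in C 1 to C 5 were 0.638, 4.74, 10.4, 3.93 and 14.3 CPM. The DOP libraries held 1.61, 0.0755, 0.401, 0.225 and 0.0697 CPM, and the WCOC libraries 0.622, 1.87, 0.751, 1.37 and 1.09 CPM. C 1 was the low control, within the range of both other diets, and the remaining 4 controls were above all 10 libraries of the olive diets.

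TM4SF19 was at 1.42, 6.54, 13.1, 4.64 and 30.3 CPM in C 1 to C 5. Its DOP levels were 1.45, 0.340, 0.370, 0.451 and 0.0349 CPM, and its WCOC levels 0.655, 1.87, 0.686, 1.18 and 0.915 CPM. Again C 2 to C 5 were above every library of the other diets, and C 1 was just below DOP 1 and below WCOC 2.

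SPP1, the osteopontin gene, was the most abundant of the set in the controls by median level per length, and MMP9, the other secreted matrix protein, the third. SPP1 was at 45.9, 82.5, 483, 105 and 746 CPM in C 1 to C 5, a spread of 16.3 times from the lowest to the highest control. It was at 12.9, 4.08, 8.15, 11.2 and 2.44 CPM in the DOP libraries and at 27.3, 79.0, 15.5, 51.5 and 20.5 CPM in the WCOC libraries. The diets were stacked with little mixing: each DOP library was below each WCOC library and below each control, and WCOC 2 and WCOC 4 alone reached into the control range.

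MMP9 was at 6.47, 26.1, 59.8, 45.7 and 63.5 CPM in C 1 to C 5. In DOP it was at 6.79, 1.89, 1.14, 2.67 and 0.628 CPM, and in WCOC at 9.13, 22.8, 2.74, 6.04 and 3.01 CPM. C 1 was the only control that overlapped either diet, being below DOP 1, WCOC 1 and WCOC 2.

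Of the genes of acidification and resorption, ACP5 had the smallest spread among the controls. It was at 2.01, 2.35, 6.53, 2.65 and 6.03 CPM in C 1 to C 5, at 3.29, 2.26, 1.94, 2.29 and 1.32 CPM in DOP, and at 0.524, 1.39, 1.21, 1.37 and 1.62 CPM in WCOC. ACP5 was also the only member of which every WCOC library was below every control among those that passed the filter, and DOP overlapped both diets. ATP6V0D2 was near the limit of detection, with 5, 18, 65, 13 and 59 counts in C 1 to C 5, 0, 2, 4, 1 and 0 counts in DOP, and 1, 2, 0, 3 and 1 counts in WCOC. Its controls were all above both other diets, at 0.245 to 2.07 CPM against 0.123 CPM at most in DOP and 0.0953 CPM at most in WCOC.

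GPNMB, the lysosomal glycoprotein, was at 44.4, 113, 241, 75.7 and 285 CPM in C 1 to C 5. Its DOP levels were 47.2, 19.3, 21, 21.7 and 13 CPM, and its WCOC levels 39.5, 54.6, 25, 59.8 and 40.6 CPM. DOP 1 stood apart from the other DOP libraries and was above C 1, and 2 WCOC libraries were also above C 1.

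**Figure D1:**
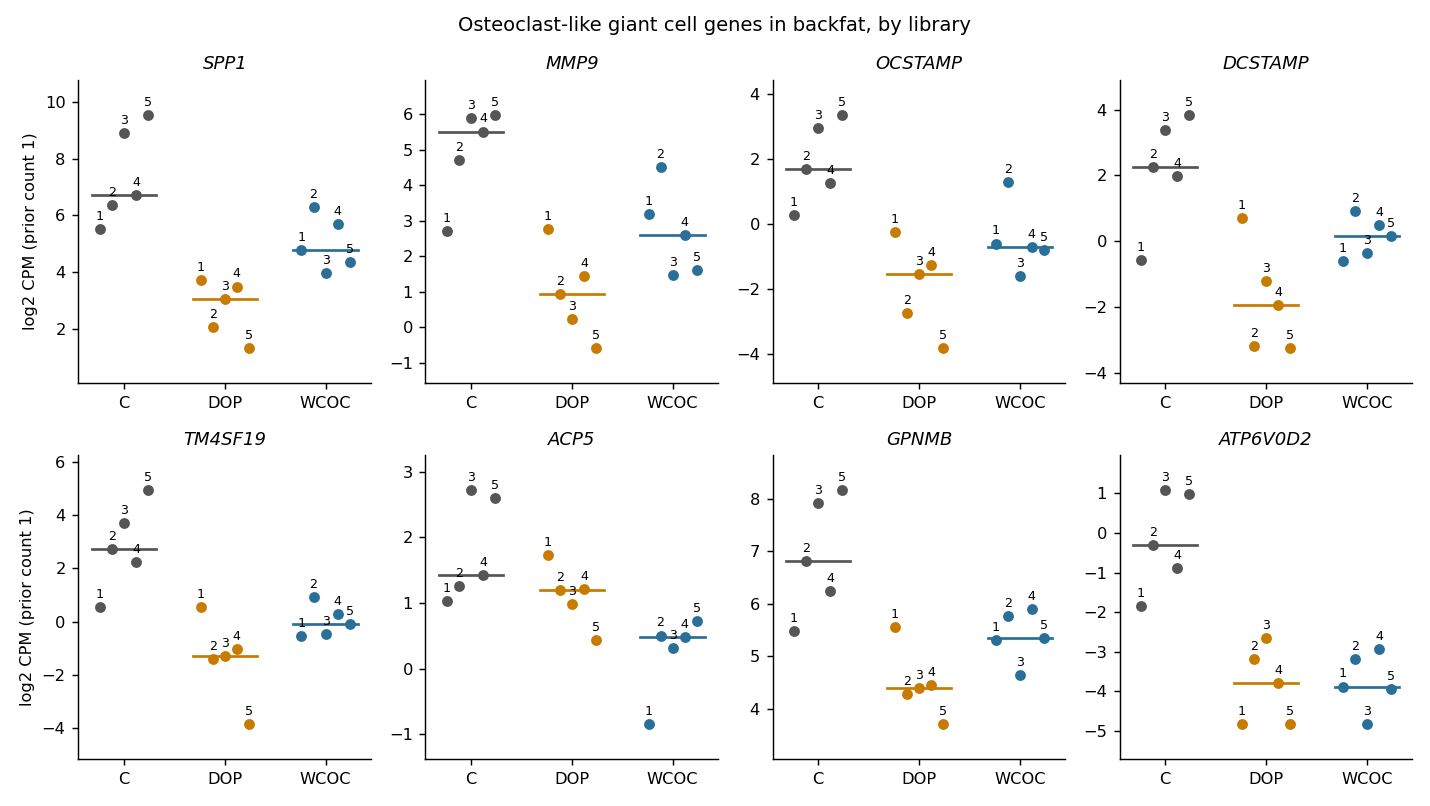
log2 CPM (prior count 1) of the 8 genes, 1 panel per gene, by diet, each point being 1 library with its replicate number and each bar the median of 5 libraries. C 3 and C 5 are the highest points in all 8 panels, and the DOP points of SPP1 lie wholly below the points of both other diets.

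Per kilobase of exon, the scale on which genes can be compared, the order of the control medians was SPP1 (68.2 CPM per kb), GPNMB (34.9), MMP9 (19.9), TM4SF19 (3.05), ACP5 and OCSTAMP (both 1.27), DCSTAMP (0.746) and ATP6V0D2 (0.362). The control values of each pair of neighbours in that order overlapped. Together the 8 genes took between 0.00932% and 0.127% of the gene counts of a control library, between 0.0015% and 0.00749% of a DOP library and between 0.00496% and 0.0162% of a WCOC library. Among these counts the part of SPP1 ranged from 34.5% to 64.4% for C libraries, from 13.9% to 28.6% for DOP libraries and from 30% to 48.2% for WCOC libraries.

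DOP vs. C showed the larger differences for SPP1, MMP9 and the fusion genes. The log2FC was -5.24 ± 0.84 (SE) for SPP1, -3.96 ± 0.78 for MMP9, -3.92 ± 0.78 for OCSTAMP, -3.86 ± 0.83 for DCSTAMP and -4.42 ± 0.81 for TM4SF19. GPNMB had a log2FC of -2.64 ± 0.48 and ACP5 of -0.82 ± 0.37. On the linear scale the control mean of SPP1 (292 ± 309 CPM, SD, n = 5) was 37.7 times the DOP mean (7.75 ± 4.48 CPM), and that of ACP5 (3.91 ± 2.18 CPM) was 1.76 times its DOP mean (2.22 ± 0.714 CPM). A DEG, or called gene, had an edgeR adjusted p below 0.05 and a log2FC of 0.58 or more in either direction. In this comparison 6 of the 7 genes met both limits, all lower, ACP5 being the other, beside 0.764% of all tested genes (0.55% lower). In addition, SPP1, OCSTAMP and ATP6V0D2 did not overlap between the diets, beside 1.76% of tested genes lower in DOP without overlap. Nothing is read from these shares, since the genes were picked on this contrast.

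WCOC vs. C gave a log2FC of -2.92 ± 0.75 for SPP1, -2.21 ± 0.71 for MMP9, -2.50 ± 0.71 for OCSTAMP and -2.58 ± 0.77 for DCSTAMP. Of the 7 genes tested, TM4SF19 had the largest difference (-3.40 ± 0.76), and GPNMB (-1.79 ± 0.47) and ACP5 (-1.68 ± 0.38) the smallest. The control mean of TM4SF19 (11.2 ± 11.5 CPM, SD, n = 5) was 10.5 times the WCOC mean (1.06 ± 0.500 CPM), and that of ACP5 was 3.21 times its WCOC mean (1.22 ± 0.417 CPM). Past the thresholds were 6 of the 7 genes, all lower, MMP9 being the other, beside 6.25% of tested genes (3.93% lower), and ACP5 and ATP6V0D2 did not overlap, beside 3.87%. Nothing is read from these shares, since the genes were picked on these levels. Both comparisons use the same 5 controls, so they are not independent of each other.

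Between the olive diets, SPP1 was higher in WCOC than in DOP by a log2FC of 2.32 ± 0.75, with every WCOC library above every DOP library, beside 4.14% of tested genes higher without overlap. MMP9 (1.74 ± 0.73), OCSTAMP (1.42 ± 0.77), DCSTAMP (1.27 ± 0.81), TM4SF19 (1.02 ± 0.78) and GPNMB (0.85 ± 0.46) had the same sign, and ACP5 alone was lower in WCOC (-0.86 ± 0.38). By edgeR 0 of the 7 were past the thresholds, beside 7.76% of tested genes. At an unadjusted p under 0.05 were 3 of the 7, beside 4196 of the 14918 tested genes. DESeq2 called 1, beside 1528 of all genes. All WCOC libraries were on flow cell A and all DOP libraries on B, so diet and flow cell cannot be told apart in this comparison.

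**Figure D2:**
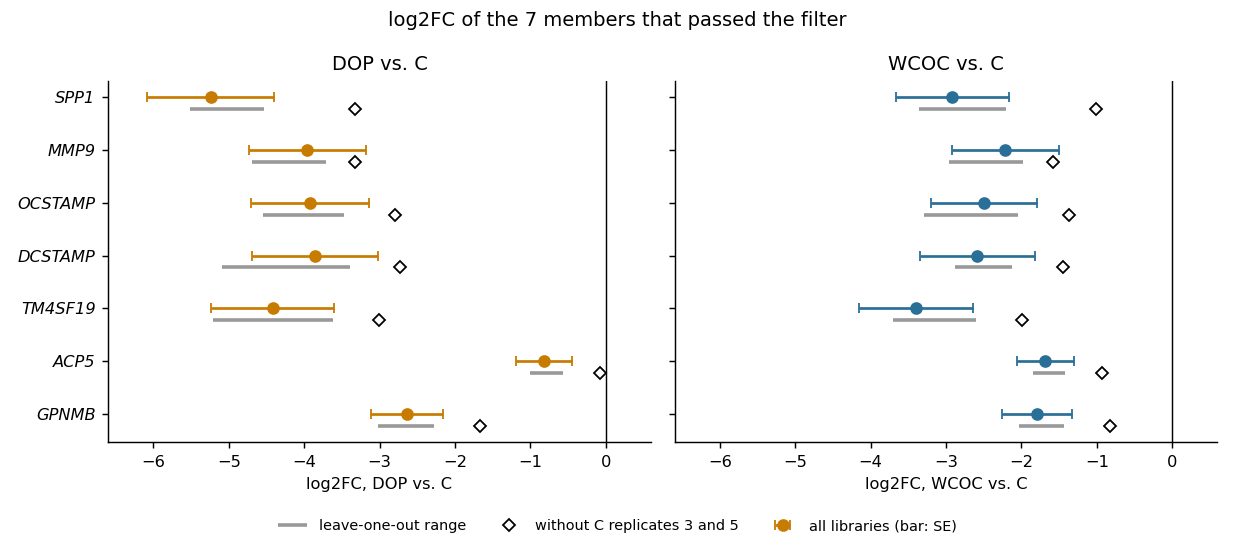
log2FC (horizontal axis) of the 7 genes tested, DOP vs. C on the left and WCOC vs. C on the right, as points with SE bars. Below each point a grey line gives the range over fits that leave out 1 library, and an open diamond the value without C 3 and C 5, which is nearer to 0 than the point for every gene, with ACP5 at -0.08 in DOP vs. C.

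The controls themselves differed widely. C 3 and C 5 were the highest of all 15 libraries for 8 of the 8 genes, and C 1 was the lowest control for 8 of 8. The mean of C 3 and C 5 was 7.90 times that of the other controls for SPP1, 5.16 times for TM4SF19, 3.99 times for DCSTAMP, 3.98 times for OCSTAMP, 3.39 times for GPNMB, 2.69 times for ACP5 and 2.36 times for MMP9. The SD of log2 CPM among controls was 1.73 for SPP1, 1.72 for DCSTAMP and 0.79 for ACP5, against a median of 0.24 over all tested genes. Within DOP, DOP 1 was highest and DOP 5 lowest for 7 of the 8 genes, and WCOC 2 was the highest WCOC library for 5. DOP 1 also had the lowest and DOP 5 the highest level of the muscle markers among the DOP libraries (35 and 39083 CPM), and the part of muscle RNA in the order of these libraries was not tested.

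Leaving out C 3 and C 5 together, a choice made after their levels were seen, gave a log2FC in DOP vs. C of -3.33 for SPP1, -3.33 for MMP9, -3.0 for TM4SF19, -2.79 for OCSTAMP, -2.72 for DCSTAMP, -1.67 for GPNMB and -0.08 for ACP5. In WCOC vs. C the values without them were -1.99 for TM4SF19, -1.58 for MMP9, -1.45 for DCSTAMP, -1.36 for OCSTAMP, -1.01 for SPP1, -0.94 for ACP5 and -0.82 for GPNMB. With only 3 controls left, edgeR called 0 of the 7 genes in either comparison. Of all tested genes it called 0 in DOP vs. C and 289 in WCOC vs. C. C 3 and C 5 were read on different flow cells. On flow cell A, C 1 to C 4 and WCOC 1 to WCOC 3 were in lane 2. WCOC 4 and WCOC 5 were in lane 8, which held no control of that flow cell. Within flow cell A, where 4 controls can be set against the 5 WCOC libraries, the log2FC was -2.22 for SPP1, -2.00 for MMP9, -2.06 for OCSTAMP, -2.13 for DCSTAMP, -2.61 for TM4SF19, -1.48 for ACP5 and -1.44 for GPNMB, and 1 of the 7 was called by edgeR. With flow cell as a covariate 2 were called in WCOC vs. C. Only C was on both flow cells, so the flow cell term came from C 5 against C 1 to C 4. That fit set DOP against C 5 alone, with a log2FC of -6.59 for SPP1. It cannot tell flow cell from diet in DOP vs. C. With only C and DOP fitted 0 were called in DOP vs. C. With a replicate block (replicate number as a term of the model) 0 were called in either comparison. Over all tested genes edgeR called 486 in WCOC vs. C within flow cell A. With the covariate it called 680 in WCOC vs. C. With only C and DOP it called 2, and with the block 0 in DOP vs. C and 473 in WCOC vs. C. Flow cell B held a single control, C 5, beside the DOP libraries, which gives no replicated value within it. All 7 genes stayed below 0 against C in every alternative in which they were fitted. The number of the 8 genes called by edgeR in DOP vs. C was 0 without C 3, C 5, DOP 2, DOP 3, DOP 4 or DOP 5, and 4 without C 4. The same fits called 0 of all tested genes without C 3, C 5, DOP 2 or DOP 4. They called 1 without DOP 5, 4 without DOP 3 and 46 without C 4, beside 114 with every library. In WCOC vs. C the number of the 8 genes was 2 without C 3 or C 5. It was 3 without WCOC 1, WCOC 3 or WCOC 5, and 4 without WCOC 4. These fits called 468 to 762 of all tested genes, beside 933 with every library. Nothing is read from these counts of the 8 genes.

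The genes moved together from library to library. After centring each gene on the mean of its diet, Pearson's r between pairs of the 8 genes was 0.45 to 0.92 with a median of 0.79 (28 pairs, n = 15 libraries, which share depth and tissue composition), as a description.

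Macrophage RNA was compared next, since all of these genes can come from macrophages. The mean log2 CPM of 14 matched macrophage markers was highest for C (4.15 ± 0.53), then DOP (3.81 ± 0.43), then WCOC (3.06 ± 0.58, SD, n = 5), and their summed level was 317 to 760 CPM in C, 243 to 557 CPM in DOP and 190 to 446 CPM in WCOC. In DOP vs. C 0 of the 14 were called by edgeR (4 at an unadjusted p under 0.05), 11 had a negative log2FC and the median was -0.28. CD163, the haemoglobin scavenger receptor, was at 30 ± 11.5 CPM in C and 33 ± 11.3 CPM in DOP (SD, n = 5), and MRC1, the mannose receptor, at 20.7 ± 10.5 and 18.2 ± 6.02 CPM. The markers with the lowest log2FC in DOP vs. C were CD68 (-1.48 ± 0.46, edgeR adjusted p = 0.132) and AIF1 (-1.21 ± 0.28, 0.0571), which DESeq2 called, followed by MARCO (-1.04 ± 0.42, 0.214) and CSF1R (-0.71 ± 0.33, 0.279). WCOC vs. C differed from this: 14 of 14 were negative, with a median of -1.12, and CD68, CD163, MRC1, AIF1 and VSIG4 were called lower. DOP and WCOC were on different flow cells, so flow cell and diet cannot be told apart in this difference. Without C 3 and C 5 together the median turned to 0.18 in DOP vs. C, with 5 of 14 negative, and was -0.63 in WCOC vs. C, with 14 of 14 negative and 0 called by edgeR (4 at an unadjusted p under 0.05). CD68 alone was called in WCOC vs. C without C 3, without C 5, or without WCOC 1, WCOC 3 or WCOC 4. Without WCOC 5, 3 were called, and without WCOC 2, 10. The fits with CD68 alone called 468 to 709 of all tested genes, beside 762 without WCOC 5 and 1163 without WCOC 2. Within flow cell A the WCOC vs. C median was -0.90, with 14 of 14 negative. CD68 alone was called there, beside 486 of all tested genes. With a replicate block edgeR called 0 in WCOC vs. C (10 at an unadjusted p under 0.05), beside 473. With flow cell as a covariate the median was -0.72 in DOP vs. C, where DOP is set against C 5 alone. It was -0.89 in WCOC vs. C and -0.06 in WCOC vs. DOP (-0.81 without the covariate). The median over all tested genes was 0.01 in DOP vs. C and 0.00 in WCOC vs. C. At an unadjusted p under 0.05 by edgeR were 2623 and 3931 of the 14918 tested genes, a background for such counts in all lists. Without C 3 and C 5 together it was 2877 in WCOC vs. C, with 289 called.

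Set against the macrophage markers of the same library, SPP1 was 3.26 ± 1.37 log2 units above their mean in C, 1.09 ± 0.74 below it in DOP and 1.96 ± 0.86 above it in WCOC (SD, n = 5). The difference of this relative level from C was -4.36 in DOP and -1.31 in WCOC for SPP1, -3.66 and -1.20 for MMP9, -3.50 and -1.31 for OCSTAMP, -3.61 and -0.96 for DCSTAMP, and -3.88 and -1.71 for TM4SF19. It was -2.10 and -0.44 for GPNMB, -3.31 and -2.47 for ATP6V0D2, and -0.34 and -0.48 for ACP5. On this scale every DOP library was below every control for SPP1, MMP9, OCSTAMP, TM4SF19, GPNMB and ATP6V0D2, beside 0.409% of all tested genes, a share from which nothing is read. ACP5 was nearly the same in all 5 DOP libraries (-2.76 to -2.62) and within the control range (-3.14 to -1.90).

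**Figure D3:**
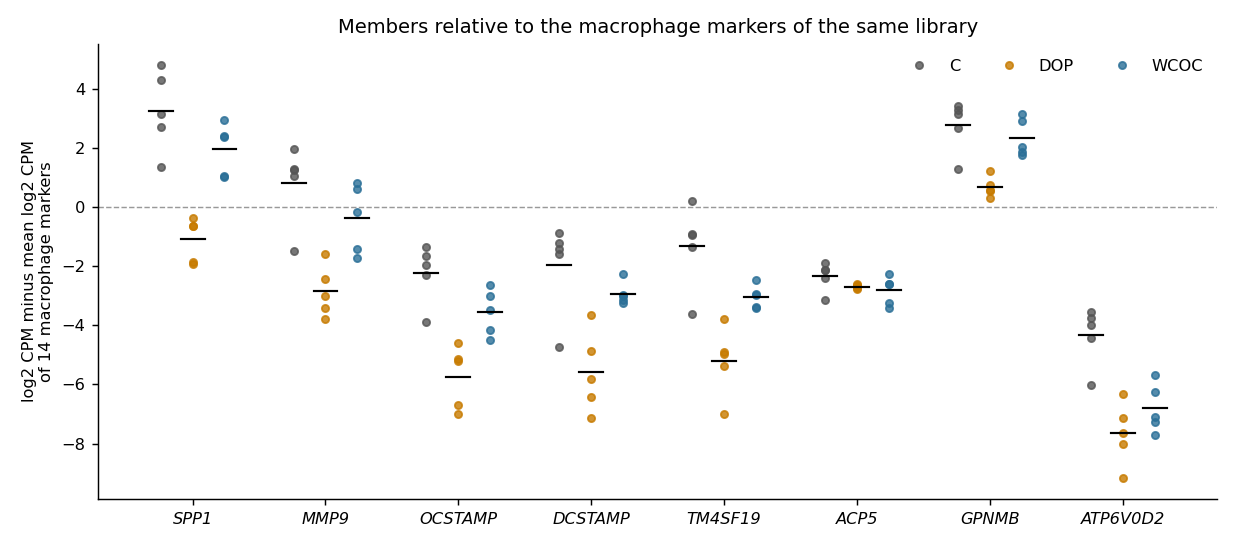
log2 CPM of each of the 8 genes minus the mean log2 CPM of 14 macrophage markers in the same library (vertical axis), by gene and diet, with points for libraries and bars for means of 5. DOP points of SPP1 lie between -1.92 and -0.39 and control points between 1.35 and 4.81, while the ACP5 points of all diets overlap.

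Markers of other cell types varied too. Skeletal muscle markers had a median log2FC of 3.32 in DOP vs. C and -2.30 in WCOC vs. C (4 tested, 0 called in either by edgeR, 1 and 0 at an unadjusted p under 0.05), and epidermis markers of -2.83 and 1.2 (4 tested, 0 called by edgeR, 3 and 0 at an unadjusted p under 0.05). Of 7 adipocyte markers 0 were called in DOP vs. C by edgeR (2 at an unadjusted p under 0.05) and 1, ADIPOQ, was higher in WCOC (0.66 ± 0.17, edgeR adjusted p = 0.0281). T cell markers had 0 of 4 called in either comparison with C by edgeR (0 at an unadjusted p under 0.05), with CD3E at 2.17 ± 0.74 CPM in C, 2.22 ± 1.76 in DOP and 2.25 ± 1.58 in WCOC (SD, n = 5). Of the 5 neutrophil markers tested 0 were called in either by edgeR, although 2 in DOP vs. C and 1 in WCOC vs. C had an unadjusted p under 0.05, and CSF3R, the receptor of granulocyte colony-stimulating factor, was at 18.4 ± 13.2 CPM in C, 4.74 ± 5.74 in DOP and 4.39 ± 2.36 in WCOC. Granule genes MPO and MMP8 were near 0, with means of at most 0.03 and 0.14 CPM. The 6 matched osteoblast and osteocyte genes summed to 11.8 to 21 CPM in C, 12.3 to 15.6 CPM in DOP and 14.8 to 17.3 CPM in WCOC. Among them IBSP and SOST were near 0 in every diet (at most 0.03 CPM on average), DMP1 was at 5.36 ± 1.52 CPM in C, 5.61 ± 1.31 in DOP and 7.18 ± 0.57 in WCOC, and of 4 tested 1, PHEX, was called, lower in WCOC (-1.27 ± 0.38, edgeR adjusted p = 0.0459). The part of these cells in the differences was not tested.

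The machinery around the 8 genes was followed in 6 lists drawn from general knowledge. The lists were chosen with earlier results of these data known, so their shares of called genes are no independent evidence. They covered signals and brakes of osteoclast differentiation, resorption, macrophage fusion, receptors of SPP1, and activators and inhibitors of MMP9. Together they named 90 genes, of which 80 were matched and 75 tested. In DOP vs. C, 4 of the 75 passed the test (5.33%, beside 0.764% of all tested genes), 3 lower and 1 higher, with a median log2FC of -0.17. In WCOC vs. C, 14 passed (18.7%, beside 6.25%), 13 lower and 1 higher, with a median of -0.22. List genes that could not be matched to a row of counts by symbol, CTSK (cathepsin K) and TNFSF11 (RANKL) among them, were not analysed here.

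Receptor signalling for osteoclast differentiation gave 0 of 23 genes called in DOP vs. C by edgeR (13 at an unadjusted p under 0.05) and 4 of 23 in WCOC vs. C, all lower. TNFRSF11A was at 50.3 ± 6.64 CPM in C, 49.1 ± 3.01 in DOP and 59.5 ± 5.41 in WCOC, and NFATC1, the leading transcription factor of osteoclasts, at 33.8 ± 5.45, 41.4 ± 12.9 and 37.5 ± 3.57 CPM (SD, n = 5). MITF, another factor of these cells, was at 40 ± 9.54, 41.1 ± 7.89 and 47 ± 12.8 CPM. Called lower in WCOC were TREM2, a lipid-sensing receptor (log2FC -2.40 ± 0.61, edgeR adjusted p = 0.0237), BLNK, an adaptor of its signalling (-1.65 ± 0.42, 0.0254), TFEC, a relative of MITF found in myeloid cells (-1.32 ± 0.34, 0.0254), and SPI1, which encodes PU.1 (-1.28 ± 0.37, 0.0408). Other genes of myeloid signalling in the list were not called in WCOC, such as CSF1R (-1.01 ± 0.33, edgeR adjusted p = 0.0655), TYROBP (-1.32 ± 0.46, 0.0838) and FCER1G (-1.21 ± 0.39, 0.0635). In DOP vs. C, TREM2 was just outside the threshold (-2.74 ± 0.62, edgeR adjusted p = 0.0507).

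Among the brakes, BCL6, a transcriptional repressor that restrains osteoclast formation and is expressed in many other cells, was higher in DOP than in C (95.5 ± 21.9 against 63.1 ± 2.12 CPM, log2FC 0.60 ± 0.13, edgeR adjusted p = 0.0452), a call that was kept in 1 of 10 fits that left out a library. In WCOC it was at 45.6 ± 3.83 CPM, below DOP by a log2FC of -1.07 ± 0.13 (edgeR adjusted p = 0.000739), which passed in 10 of 10 such fits. BCL6 varied more among DOP libraries (64.1 to 120 CPM) than among controls (59.7 to 65.4 CPM), as did the skeletal muscle markers. The part of muscle RNA in the level of BCL6 was not tested. DOP and WCOC were read on different flow cells, and with flow cell as a covariate edgeR called 0 of the 75 list genes between them (14 at an unadjusted p under 0.05). Over all tested genes it called 1, with 2073 at an unadjusted p under 0.05. Osteoprotegerin (TNFRSF11B), the soluble decoy of RANKL, did not pass the filter and was at 0.1 ± 0.0725 CPM in C, 1.04 ± 1.57 in DOP and 0.126 ± 0.102 in WCOC.

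Resorption genes gave 1 of 18 called in DOP and 3 of 18 in WCOC against C, all lower. TCIRG1, the a3 subunit of the osteoclast proton pump, had a log2FC of -1.07 ± 0.24 in DOP vs. C (11.7 ± 4.12 against 5.59 ± 1.30 CPM, edgeR adjusted p = 0.0484) and of -0.50 ± 0.23 in WCOC vs. C (0.19). ATP6V1A and ATP6V1B2, subunits of the pump in all cells, were lower in WCOC (-0.59 ± 0.10 and -0.59 ± 0.13, edgeR adjusted p = 0.00362 and 0.0115), as was FERMT3, an integrin activator of blood cells (-1.50 ± 0.38, 0.0228). Carbonic anhydrase CA2 (2.83 ± 0.99 CPM in C, 3.87 ± 1.23 in DOP, 4.19 ± 1.36 in WCOC), integrin ITGB3 (26 ± 5.33, 23.7 ± 4.77 and 20.5 ± 5.38 CPM) and MMP14 did not pass the test, and the calcitonin receptor CALCR averaged at most 0.386 CPM.

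Macrophage fusion genes had 2 of 17 called in DOP and 5 of 17 in WCOC against C, all lower. ADAM8, a surface metalloproteinase that promotes fusion, had a log2FC of -2.39 ± 0.48 in DOP (edgeR adjusted p = 0.0378) and -1.95 ± 0.47 in WCOC (0.0193), at 13.6 ± 10.2 CPM in C against 2.61 ± 0.94 and 3.54 ± 1.32 CPM. ITGB2, the common chain of leukocyte integrins, had -1.91 ± 0.40 (edgeR adjusted p = 0.0421) and -1.67 ± 0.39 (0.0175). Its partner ITGAM (-1.42 ± 0.36, edgeR adjusted p = 0.025), MRC1 (-1.19 ± 0.35, 0.0423) and CD44 (-0.58 ± 0.16, 0.0322) were called in WCOC vs. C and not in DOP vs. C, and none of the 3 was called between WCOC and DOP.

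For the ligand SPP1, 0 of 10 receptor genes were called in DOP vs. C by edgeR (2 at an unadjusted p under 0.05), and in WCOC vs. C CD44 was lower and ITGA8, an integrin chain of smooth muscle and mesenchyme, higher (1.81 ± 0.51, edgeR adjusted p = 0.0361). For MMP9, 0 of 6 activators and inhibitors were called in DOP by edgeR (1 at an unadjusted p under 0.05), and the inhibitor TIMP1 was lower in WCOC (23 ± 5.55 against 12.1 ± 4.67 CPM, log2FC -0.93 ± 0.24, edgeR adjusted p = 0.0278). Between the olive diets, 5 of the 75 genes passed, a share (6.67%) no higher than that of all tested genes (7.76%): BCL6, ADAM12 and ITGB6 were lower in WCOC than in DOP, and IL34 and ITGA8 higher.

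The calls in these lists rested on few libraries, and the number called over all tested genes also fell in the fits named here. Without C 3 or without C 5 the number called in DOP vs. C was 0, as it was without DOP 2, DOP 3, DOP 4 or DOP 5. It was 1 without C 4 and 6 at most. Over all tested genes it was 0 without C 3, C 5, DOP 2 or DOP 4. It was 1 without DOP 5, 4 without DOP 3 and 46 without C 4. In WCOC vs. C the number in the lists was 2 without C 3, 1 without C 5 and 1 without WCOC 1. It was 3 without WCOC 4, 6 without WCOC 3 and 9 without WCOC 5. These fits called 468 to 762 of all tested genes, beside 933 with every library. Without C 3 and C 5 together, edgeR called 0 of the list genes in both comparisons, with 15 and 19 at an unadjusted p under 0.05. Over all tested genes it called 0 and 289, with 1776 and 2877 at an unadjusted p under 0.05. Among the fits that left out 1 library, the call of ITGB2 in WCOC vs. C was lost in that without WCOC 1, and it was also lost without C 3 and C 5 together. Within flow cell A edgeR called 0 of the 75 genes in WCOC vs. C (29 at an unadjusted p under 0.05). Over all tested genes it called 486, with 3546 at an unadjusted p under 0.05.

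**Figure D4:**
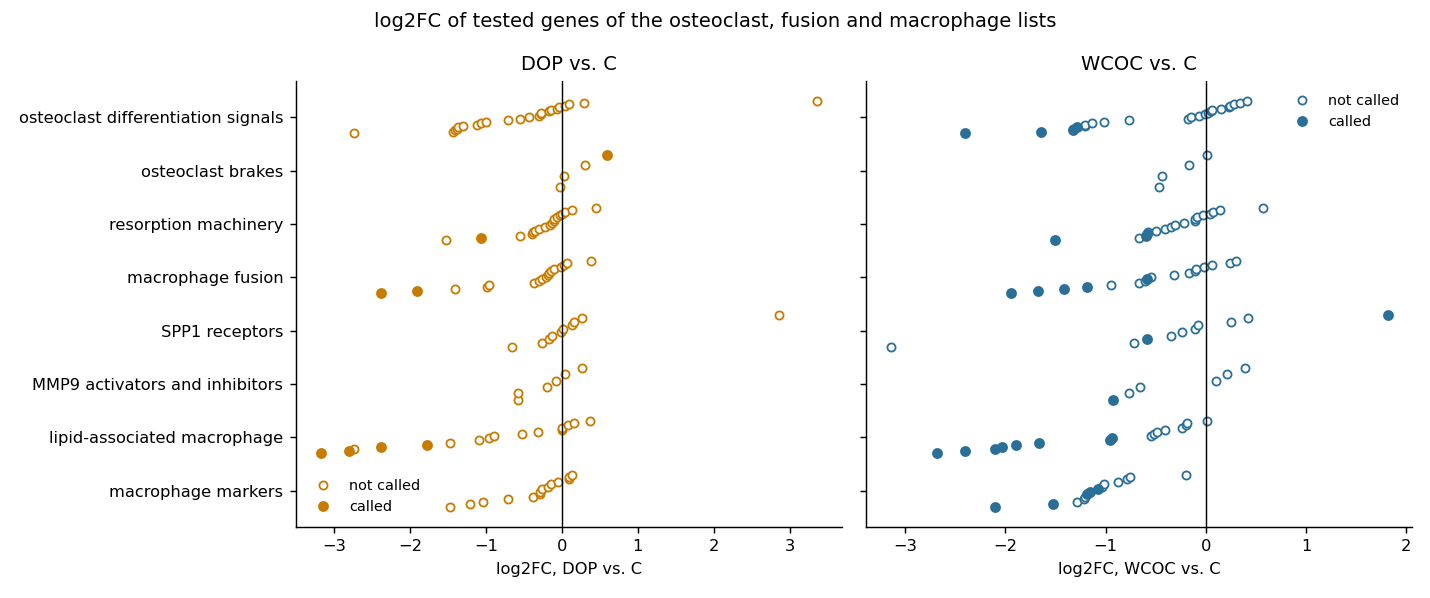
log2FC (horizontal axis) of each tested gene, by list (rows), DOP vs. C on the left and WCOC vs. C on the right, with filled points for genes past the thresholds and open points for the others. In the lipid-associated macrophage row 4 genes are filled in DOP and 8 in WCOC, all below 0, and the macrophage marker row has 0 filled in DOP and 5 in WCOC.

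Genes of lipid-loaded macrophages had the clearest counts of the lists. This list was also chosen with earlier results of these data known, so its shares are no independent evidence. Of 16 tested, 4 were called in DOP vs. C (25% beside 0.764%) and 8 in WCOC vs. C (50% beside 6.25%), all lower. MSR1, the class A scavenger receptor, was at 44.2 ± 40 CPM in C against 4.89 ± 2.75 in DOP (log2FC -3.18 ± 0.65, edgeR adjusted p = 0.0397) and 6.91 ± 5.07 in WCOC (-2.68 ± 0.63, 0.0175). LGALS3, galectin-3, had -2.38 ± 0.47 (edgeR adjusted p = 0.0367) and -1.90 ± 0.46 (0.0198), OLR1, a receptor of oxidised lipoprotein, -2.81 ± 0.57 (0.0382) and -2.04 ± 0.54 (0.0306), and CTSS, cathepsin S, -1.78 ± 0.35 (0.0367) and -1.66 ± 0.35 (0.0103). TREM2, PLIN2, CD68 and CTSB were also called lower in WCOC. APOE (3106 ± 714, 3119 ± 275 and 3138 ± 757 CPM) and LIPA (411 ± 66.2, 412 ± 50.9 and 361 ± 56.3 CPM), which adipose tissue expresses in other cells too, did not pass in either. Without C 3 and C 5 together, edgeR called 0 of them in DOP vs. C (7 at an unadjusted p under 0.05) and 1, CTSS, in WCOC vs. C, where 16 of 16 were negative. Over all tested genes it called 0 (1776 at an unadjusted p under 0.05) and 289. With 1 library left out, the number of list genes in DOP vs. C was 0 without C 3, C 5, DOP 2, DOP 3, DOP 4 or DOP 5. It was 2 without C 4, 6 without C 1 or DOP 1 and 7 without C 2. Over all tested genes these fits called 0 without C 3, C 5, DOP 2 or DOP 4. They called 1 without DOP 5, 4 without DOP 3 and 46 to 200 otherwise. In WCOC vs. C the number of list genes was 4 without C 3 or C 5 and 3 without WCOC 1. It was 5 without WCOC 3, WCOC 4 or WCOC 5, and these fits called 468 to 762 of all tested genes. With flow cell as a covariate 4 were called in WCOC vs. C, beside 680 of all tested genes. Within flow cell A 2 were called in WCOC vs. C, beside 486. With only C and DOP fitted edgeR called 0 in DOP vs. C (10 at an unadjusted p under 0.05), beside 2 of all tested genes (2377). With a replicate block 0 were called in DOP vs. C and 2 in WCOC vs. C by edgeR, beside 0 and 473.

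Paralogues with other roles were looked up too. ATP6V0D1, the d1 subunit present in all cells, was at 87.8 ± 10.5 CPM in C, 81.4 ± 10.9 in DOP and 72.2 ± 12.1 in WCOC, and the gelatinase MMP2 at 379 ± 91.3, 356 ± 57 and 319 ± 97.3 CPM (SD, n = 5). The acid phosphatase ACP2 was at 32.3 ± 2.71, 30.5 ± 1.42 and 27.8 ± 1.91 CPM. Of 7 paralogues tested 0 were called against C by edgeR in either comparison (0 and 3 at an unadjusted p under 0.05).

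The genomic neighbours of the 8 genes were looked at as well. Within 250 kb on either side lay 38 tested genes, of which 0 were called in DOP vs. C and 1, UBE2C near MMP9, in WCOC vs. C. Of all tested genes 0.764% and 6.25% were called, and nothing is read from such small counts. The median log2FC of the neighbours was -0.05 and -0.01. MMP9 and OCSTAMP are 517 kb apart on chromosome 17, and of the 5 tested genes between them (SLC12A5, NCOA5, CD40, SLC35C2 and ELMO2) 0 were called by edgeR against C.

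Genes most like the set were ranked by Pearson's r with the mean scaled level of the 7 tested members, after centring on the diets (n = 15 libraries, 13098 genes ranked). The first 10 were MSR1 (0.97), ENSSSCG00000051406 (0.96), LGALS3 (0.96), CLEC5A (0.96), ENSSSCG00000044695 (0.96), ENSSSCG00000042589 (0.96), SLC11A1 (0.96), TREM2 (0.96), ENSSSCG00000034469 (0.95) and NYAP2 (0.93). CLEC5A is a myeloid lectin receptor and SLC11A1 a metal transporter of phagosomes, and 4 of the 10 had no symbol. In all, 9 of the 10 were also among the first 10 without centring, 7 without C 3 and C 5, and 5 by Spearman's rho.

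**Figure D5:**
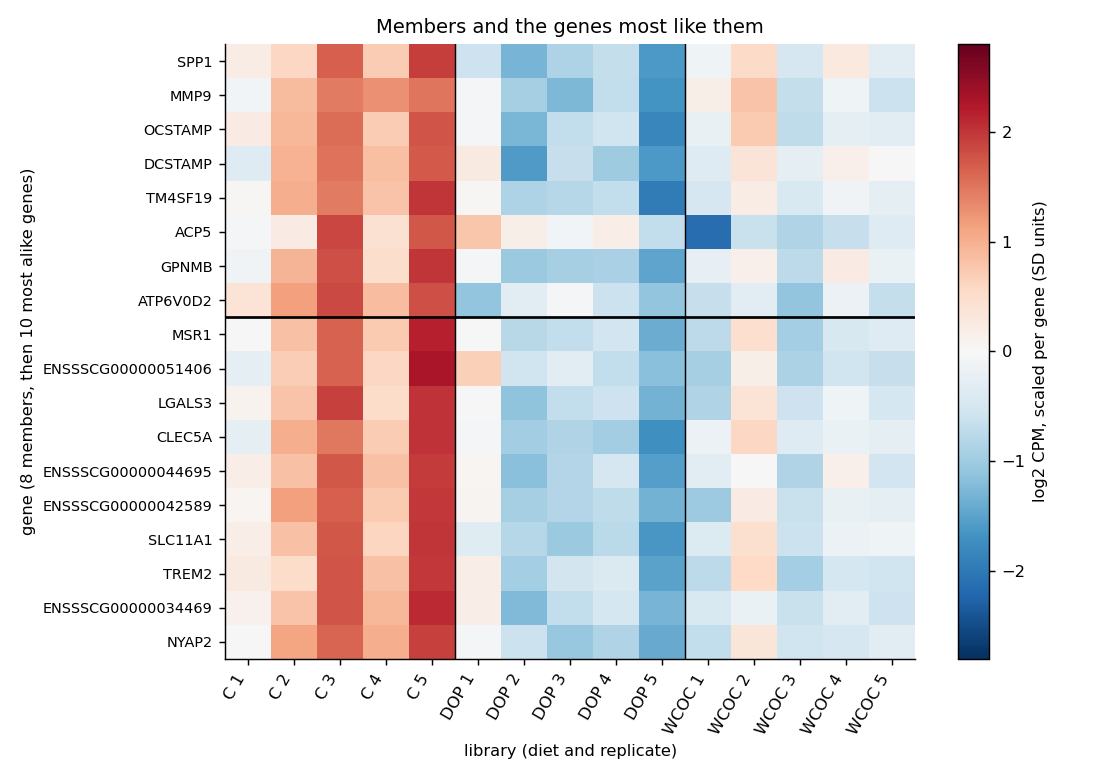
log2 CPM scaled per gene (colour, SD units) of the 8 genes, above the line, and the 10 genes most like them, below it, in the 15 libraries (columns). C 3 and C 5 are the darkest red columns and DOP 5 the most evenly blue, while ACP5 is lowest in WCOC 1.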

How the data were processed

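Backfat RNA of 15 pigs was sequenced, 1 library per pig. The authors aligned the reads with HISAT2 to Sscrofa11.1, after FastQC, and counted them per gene with HTSeq, and the deposited values are raw counts for 30477 genes, with 5 summary lines for uncounted reads that were left out (23.4% to 32.8% of a library). The alignment was set as strand-specific, and the strand option of the counting is not given in the sources used here. The labels gave diet and replicate.

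The 8 genes and the lists were chosen with earlier results of these data known. Genes were kept by filterByExpr, libraries scaled by TMM, and edgeR 4.0.16 (R 4.3.3) quasi-likelihood models fitted to all 15 libraries, with p-values Benjamini-Hochberg adjusted over 14918 genes. Called genes (DEGs) had an adjusted p below 0.05 and a log2FC of 0.58 or more in either direction. CPM and log2 values (prior count 1) were computed here. Named genes are the 8, the list genes and the 10 most alike, by Pearson's r with the mean scaled level of the members, at a mean CPM of at least 1. UBE2C and the genes between MMP9 and OCSTAMP were named after their values were seen. Of 194 list genes, 167 were matched. Sequences and positions are from RefSeq. The alternatives were DESeq2 1.42.0 and its size factors, other filters, a replicate block, flow cell, only the diets compared, and libraries left out. The workflow was tested on simulated data. Nothing says that pigs were sampled independently of pen, so p-values measure the spread between these pigs only.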

Additional observations from a re-analysis of the deposited data

Results flagged for a closer look

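In each diet the 8 genes were searched for a library far from the others by Dixon's ratio (critical value 0.71 for 5 libraries). Of 24 groups 3 were marked. Chance marks about 5% of groups when these are independent and their values normally distributed. The genes moved together and CPM was not on a log scale, so that rate may not hold here and nothing is read from the count. OCSTAMP in WCOC 2 was at 2.40 CPM, with the next WCOC library at 0.622 CPM. DCSTAMP in DOP 1 was at 1.61 CPM, with the next at 0.401 CPM, and GPNMB in the same library was at 47.2 CPM, with the next at 21.7 CPM. The cause was not tested.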

How the results depend on the processing

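The median log2FC of the 7 tested members was -3.92 in DOP vs. C (-4.69 to -3.47 with 1 library left out), -2.50 in WCOC vs. C (-2.96 to -2.05) and 1.27 in WCOC vs. DOP (0.75 to 2.04, and 2.81 with flow cell as a covariate). The flow cell term rests on C 5 alone against C 1 to C 4, in every fit that holds it. Numbers of DEGs moved more: 114 in DOP vs. C became 518 by DESeq2, 0 with a replicate block (edgeR, 1950 at an unadjusted p under 0.05), 2 with only these diets fitted, and 0 without C 3 and C 5 (edgeR, 1776), and ranged from 0 to 200 with 1 library left out. It was 0 without C 3, C 5, DOP 2 or DOP 4, 1 without DOP 5, 4 without DOP 3, 46 without C 4 and 200 without C 1. The 933 of WCOC vs. C became 473 with the block, 486 in flow cell A and 289 without C 3 and C 5 (468 to 1163 with 1 left out, lowest without WCOC 1), and the 1158 of WCOC vs. DOP became 561 with the block and 1 with flow cell as a covariate (639 to 1291, lowest without WCOC 1). Pathway genes called in DOP vs. C (4) numbered 2 without the filter, 15 by DESeq2 and 0 to 6 with 1 library left out. They numbered 0 by edgeR with the block, with only these diets or without C 3 and C 5 (24, 29 and 15 at an unadjusted p under 0.05). In WCOC vs. C (14) they numbered 1 with the block, 2 with flow cell as a covariate, and 0 by edgeR in flow cell A and without C 3 and C 5 (29 and 19 at an unadjusted p under 0.05), and 1 to 18 with 1 left out. In WCOC vs. DOP (5) they numbered 9 by DESeq2, 3 with the block, 3 with only these diets and 0 by edgeR with flow cell (14 at an unadjusted p under 0.05), and 2 to 6 with 1 left out. Over all tested genes, 2377 in DOP vs. C had an unadjusted p under 0.05 by edgeR with only these diets. The number in WCOC vs. C was 3546 in flow cell A and 2877 without C 3 and C 5. In WCOC vs. DOP with flow cell it was 2073. Of single-gene values under these settings 7545 were marked as unchanged, 373 lost and 93 gained a call, and 17 values of members moved. For genes other than members, unchanged means the same side of the threshold. For members it means a shift in log2FC smaller than the SD within diets, whether or not a call was lost. Lost calls of members are not in the 373: in DOP vs. C, 6 members were called in the main fit and 0 with the block. A sign changed for 0 values of called genes or of the 7 tested members. It changed for 381 of 6805 values of genes not called (median size 0.04 on the log2 scale before the change). ATP6V0D2, which was not in the main fit, had both signs in WCOC vs. DOP (-0.52 to 0.62 with 1 library left out). A filter of 10 counts in every library kept 4 members, so no median over the 7 was formed. The labels do not say whether replicate numbers pair the pigs. Same-numbered libraries had deviations with r of -0.50 to 0.34, and 3 of 15 pairs were over 0.1. Differently numbered libraries were not compared, so these values cannot decide it. The cause of these changes was not tested. Depth limits ATP6V0D2, with at most 4 counts in a DOP library and 3 in a WCOC library.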
